A study of Mus musculus with 14 samples.

Results

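The serpins are a family of proteins with one shared fold, most of which trap proteases. They were followed through 14 DNase-seq libraries of mouse liver, an assay that maps accessible chromatin through the fragments released by the nuclease DNase I. Members were the 60 protein-coding genes on autosomes and X whose symbol starts with Serpin, out of 22208 protein-coding gene symbols in the mm9 annotation. A peak belonged to a gene when it overlapped the gene body or lay within 10 kb upstream of its start, and peaks of all libraries sharing 1 bp were merged. This gave 77 Serpin regions among 48148 regions in all. Each letter after Serpin names a clade, and the family held 23 genes of clade A, 26 of clade B and 11 of clades C to I.

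The mice were CD1 animals of the ICR strain aged 7 weeks, with no transgene named in the labels. The 4 intact female libraries came from mice with a pituitary. All other libraries came from hypophysectomized (hypox) mice, whose pituitary the supplier had removed: 2 of females, 2 of untreated males, and 2 for each time of 30, 90 and 240 min after males were given 1 intraperitoneal injection of growth hormone (GH; recombinant, of rat) at a dose of 125 ng per g. Vehicle injection of the untreated hypox males is not clear from the labels. Each library pooled 3 livers, except hypox female pool 1 with 2, so a pool is the replicate. Intact males were not analysed here. A code in the titles is G103 for the untreated hypox males, G93 for pools 3 and 4 of the intact females and G92 for the other 10 libraries; GH and code cannot be told apart in males, nor can sex and code in untreated hypox mice.

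In an inhibitory serpin, an exposed loop is cut by the target protease, the loop folds into the body of the serpin and the protease stays bound and inactive. Hepatocytes secrete most of the serpins of blood plasma, which restrain clotting, clot removal, complement and elastase, while a few members carry hormones instead. Clade B serpins stay inside cells and act there on proteases of leukocytes and lysosomes. GH reaches liver genes largely through the transcription factor STAT5.

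Libraries held 13078268 to 33700120 tags and lists 17691 to 35851 peaks. The untreated hypox male pools had 17419756 and 33700120 tags, and the GH pools 13813596 to 17174839. The part of depth in the GH comparisons was not tested. Where a call is missing, the threshold was not reached at the depth of that library. The liver label was met by hepatocyte markers: all 10 hepatocyte marker genes had a region and 9 had one called in all 14 libraries. Endothelial marker genes had a region in 7 of 8 cases, against 3 of 8 for stellate, 2 of 8 for Kupffer, 2 of 8 for lymphocyte, 2 of 6 for cholangiocyte and 2 of 6 for neutrophil markers. Regions called at endothelial markers numbered 15 to 27 in intact females, 9 and 15 in hypox females, 17 and 21 in untreated males, and 11 and 14, 10 and 12, and 8 and 18 at the 3 GH times; their part in the results was not tested. In pooled liver, fewer cells of a type and less accessible DNA per cell cannot be told apart.

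The sequences below are 200 bases of mm9 around the summit, plus strand, at the regions that the comparisons turned on and at 2 constant clade A regions of high fold. The fold is the authors' peak enrichment over the local background in that library. Capitals mark matches, on either strand, to TTCNNNGAA (STAT5), TTNNGCAA (C/EBP), TGTTTAC (FOXA), ACANNNTGT (glucocorticoid receptor) or TGANTCA (AP-1). The first 4 were called after GH at 2 or 3 times and in neither untreated hypox male pool: an intron of Serpinb6b (chr13:33061538-33061737), the Serpina3k promoter (chr12:105576408-105576607), and sites upstream of Serpina10 (chr12:104871759-104871958) and Serpina11 (chr12:105230632-105230831). The Serpina7 site (chrX:135624464-135624663) was called in all hypox libraries and no intact one. The intron of Serpina12 (chr12:105279691-105279890) and the promoter of Serpina6 (chr12:104895444-104895643) were called in every library.
Serpinb6b intron: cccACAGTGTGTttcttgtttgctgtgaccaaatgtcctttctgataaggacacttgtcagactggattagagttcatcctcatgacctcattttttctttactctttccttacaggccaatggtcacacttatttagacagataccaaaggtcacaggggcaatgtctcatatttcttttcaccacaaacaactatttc
Serpina3k promoter: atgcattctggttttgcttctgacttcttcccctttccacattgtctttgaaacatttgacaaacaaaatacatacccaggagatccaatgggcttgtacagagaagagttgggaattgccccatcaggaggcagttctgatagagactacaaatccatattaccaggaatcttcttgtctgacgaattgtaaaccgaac
Serpina10 upstream: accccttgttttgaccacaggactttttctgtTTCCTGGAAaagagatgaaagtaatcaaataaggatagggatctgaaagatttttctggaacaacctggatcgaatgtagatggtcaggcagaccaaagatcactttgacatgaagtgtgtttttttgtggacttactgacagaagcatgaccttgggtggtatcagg
Serpina11 upstream: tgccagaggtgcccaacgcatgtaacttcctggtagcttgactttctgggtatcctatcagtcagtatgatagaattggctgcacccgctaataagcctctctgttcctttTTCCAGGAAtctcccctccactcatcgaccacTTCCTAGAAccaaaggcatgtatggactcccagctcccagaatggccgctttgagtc
Serpina7 upstream: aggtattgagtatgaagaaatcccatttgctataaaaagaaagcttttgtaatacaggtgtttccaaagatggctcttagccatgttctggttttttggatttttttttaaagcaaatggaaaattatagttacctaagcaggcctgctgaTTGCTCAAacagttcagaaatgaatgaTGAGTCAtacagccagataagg
Serpina12 intron: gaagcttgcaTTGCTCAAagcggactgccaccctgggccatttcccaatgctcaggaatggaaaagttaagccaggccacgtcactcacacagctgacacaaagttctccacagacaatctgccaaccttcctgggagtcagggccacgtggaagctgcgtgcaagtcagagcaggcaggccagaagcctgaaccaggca
Serpina6 promoter: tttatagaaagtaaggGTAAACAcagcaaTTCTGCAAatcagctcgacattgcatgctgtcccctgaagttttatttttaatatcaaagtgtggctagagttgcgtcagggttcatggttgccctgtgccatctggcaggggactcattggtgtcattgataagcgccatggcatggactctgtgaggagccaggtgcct

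Of the 60 Serpin genes, 30 had a region in at least 1 library, beside 62.7% of all protein-coding gene symbols. A region called in all 14 libraries was found at 11 Serpin genes (18.3%), against 22.4% of all. Among the 77 regions, 14 had a call in every library and 23 were seen in 1 alone. The first share was 18.2%, beside 15.4% of all regions, and the second 29.9%, beside 22.6%. Mean folds were 4.73 to 10.33 at 13 of the 14 constant regions, and folds 2.23 to 5.79 at 22 of the 23 single-library regions. Intact female pool 4, which has the longest list, held 6 of the 23. By position, 32 regions lay upstream, 21 within 1 kb of a transcript start, 19 in introns, 2 in untranslated exons and 3 across a 3′ end.

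**Figure D1:**
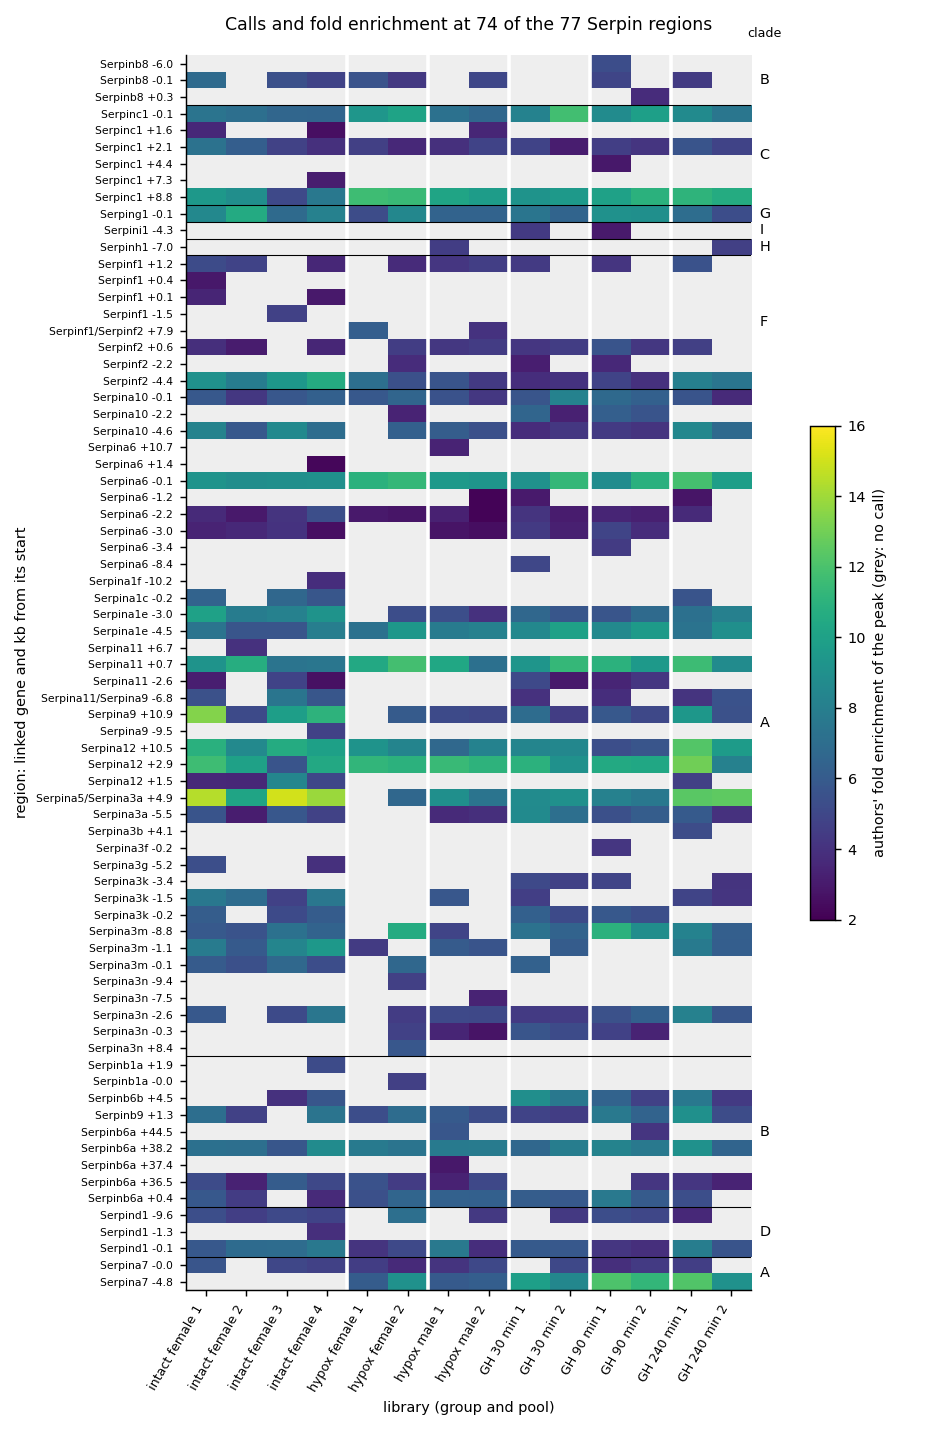
Each row is 1 of 74 of the 77 Serpin regions with its distance in kb from the start of the nearest linked gene, each column 1 of the 14 libraries, and the colour is the authors' fold enrichment, with grey where no peak was called. Unbroken rows are 13 of the 14 regions called everywhere.

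Inhibitors of clotting held 5 of the 14 constant regions. Serpinc1 encodes antithrombin, the main inhibitor of thrombin and factor X, and had 3 of the 14 constant regions. Its site in an intron 8.8 kb into the gene (chr1:162917057-162917874) had folds of 5.08, 9.89 and 11.65 (lowest, median and highest library), with a mean of 9.69 ± 1.72 (SD, n = 14). Its promoter (chr1:162908263-162908926) stood at 8.28 ± 1.57 and a second intronic site, 2.1 kb in, at 4.73 ± 1.07. No library lacked any of these 3 sites, and the other 3 Serpinc1 regions were called in 1 to 3 libraries. Serpind1, heparin cofactor II, had its promoter called everywhere (chr16:17331089-17331811, fold 3.82 to 7.94, median 5.86). Serpina10, which inhibits factor X together with protein Z, had a constant promoter too (chr12:104869444-104870081), at 3.68 to 8.18 with a median of 5.82. Serpina5, the protein C inhibitor, had 1 region, in an untranslated exon at its 3′ end and upstream of Serpina3a (chr12:105343966-105344626). It was called in 13 libraries, all but hypox female pool 1, at a mean fold of 10.39 ± 2.90. The fold of that region was 14.43, 10.19, 15.05 and 13.87 in the intact females and 6.70 in hypox female pool 2. It was 12.41 and 12.54 at 240 min, and 7.37 to 9.04 in the untreated hypox males and at 30 and 90 min. Each fold belongs to its own list and was not tested between libraries.

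Regulators of clot removal and complement followed. Serpinf2, the inhibitor of plasmin, had its constant site 4.4 kb upstream (chr11:75257177-75257885) at 3.85 to 10.59 with a median of 6.38, and its promoter in 11 libraries. The fold of the upstream site was 9.06, 7.88, 9.39 and 10.59 in the intact females, 7.11 and 5.44 in hypox females, and 5.66 and 4.39 in hypox males. After GH it was 3.85 and 4.07 at 30 min, 4.80 and 3.98 at 90 min, and 8.11 and 7.43 at 240 min. Here too the folds were not tested between libraries. Serping1, the C1 inhibitor of complement and of kallikrein, had 1 region, its promoter (chr2:84614844-84616213), at 7.50 ± 1.52.

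The hormone carriers Serpina6 and Serpina7 differed in how constant their sites were. Serpina6, corticosteroid-binding globulin, had 8 regions, more than any other Serpin gene. Its promoter (chr12:104895154-104895809) ranged little, from 8.83 to 11.89 with a median of 9.45. A second site 2.2 kb upstream was missed only in GH 240 min pool 2. Other Serpina6 regions were called in few libraries: the site 1.2 kb upstream in 3. Those 3.4 and 8.4 kb upstream, and 1.4 and 10.7 kb downstream of the start, were called in 1 library each. Serpina7 encodes thyroxine-binding globulin and is the one member of clade A on X. Its promoter, 1.0 kb from the start of the neighbouring gene 4930513O06Rik, was called in 11 libraries at 4.60 ± 0.58. The Serpina7 site 4.8 kb upstream is described with the intact females below. Near the constant Serpina11 promoter (9.72 ± 1.57), Serpina12, also called vaspin, had constant intronic sites 2.9 kb (10.33 ± 1.76) and 10.5 kb (8.74 ± 1.93) from its start. Serpina9, a serpin known from germinal-centre B cells, had an intronic region in 13 libraries at 7.14 ± 2.83.

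Serpina1a to Serpina1e encode forms of alpha-1-antitrypsin, the main elastase inhibitor of plasma, and 3 of these 5 genes (Serpina1a, Serpina1b and Serpina1d) had no region in any library. Serpina1c had only its promoter (chr12:105143129-105143492), called in intact female pools 1, 3 and 4 and GH 240 min pool 1 at 5.65 to 6.67. Serpina1e had a constant site 4.5 kb upstream (chr12:105201286-105202058, 8.03 ± 1.31) and another 3.0 kb upstream in 13 libraries. The region linked to Serpina1f touched the edge of its window only through the peak of intact female pool 4. The lists rest on uniquely mapped reads, so words of 40 bases, the tag length, were looked up in the genome. Unique 40-mers made up 86.2% of a genome-wide sample, but 40.7% in the window of Serpina1a, 46.5% in that of Serpina1b, 33.7% in Serpina1c and 32.1% in Serpina1d, against 72.1% in Serpina1e. In the 1 kb before the start, the shares were 68.8%, 67.5%, 59.3%, 43.6% and 96.7% in the same order. The 3 genes without a region and Serpina1c, with 1, all had windows under 50% unique. Reads that match more than 1 copy are not in these lists. Their part in the missing calls at these copies was not tested, and a missing call here is not read as inaccessible chromatin.

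**Figure D2:**
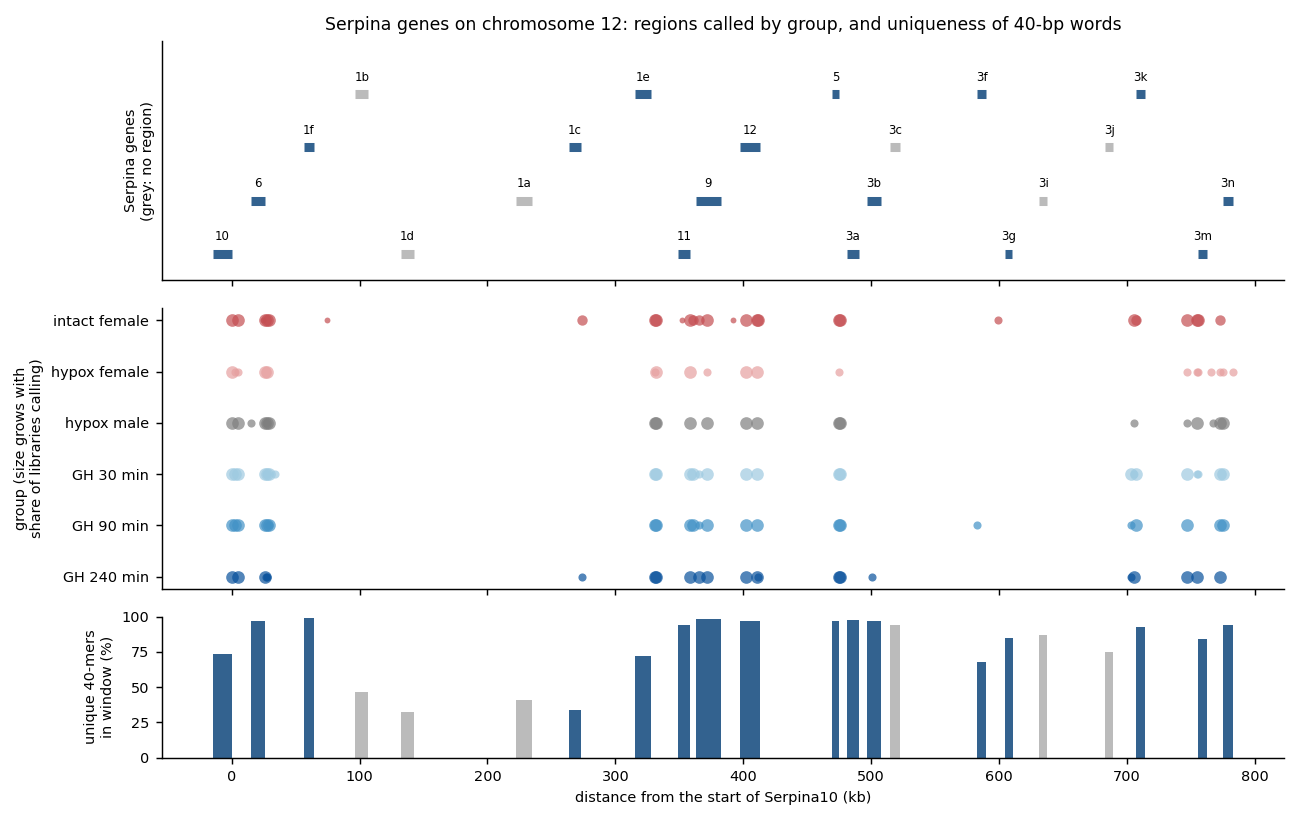
The 22 Serpina genes on chromosome 12 are drawn by distance in kb from the start of Serpina10 (top), with the regions called in each group (middle, larger dots where a larger share of libraries called them) and the percent of unique 40-mers in each gene window (bottom). The stretch that holds Serpina1b, Serpina1d and Serpina1a has no dots, and its windows are 32.1 to 46.5% unique.

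The Serpina3 genes, a group that is expanded in mouse and whose human counterpart is alpha-1-antichymotrypsin, had 16 regions at 7 of 10 genes, with 1 shared with Serpina5, and none was called in every library. Their window uniqueness ran from 67.6 to 97.5%. Serpina3n, an inhibitor of granzyme B and cathepsin G, had a site 2.6 kb upstream in 12 libraries (5.63 ± 1.19). Serpina3m had a site 8.8 kb upstream in 12 libraries (7.39 ± 1.93). Serpina3b and Serpina3f had 1 region each, seen in 1 library, and Serpina3c, Serpina3i and Serpina3j had none.

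Clade B contrasted with clade A in its count of genes with calls: 5 of 26 had a region, against 17 of 23. On chromosome 1, where the group includes Serpinb2, Serpinb5 and the Serpinb3 genes, 10 of 11 members had none, and Serpinb8, an inhibitor of furin, was the exception with its promoter in 8 libraries. On chromosome 13, 4 of 15 had one. Serpinb9, which protects cells from granzyme B, had a region in 13 libraries (6.18 ± 1.37), 1.3 kb from the gene start and within 1 kb of another of its transcript starts. Serpinb1a, an inhibitor of neutrophil elastase, had 2 regions called in 1 library each. Serpinb6a, an inhibitor of cathepsin G, held the only constant region of the clade (7.54 ± 0.88), but its summit lies 0.0 kb from the start of Nqo2, a neighbouring gene within the Serpinb6a window. Its promoter, called in 12 libraries, is likewise 0.0 kb from the start of Ripk1. Regions at the neutrophil marker genes numbered 0 to 2 per library and 4 of those 6 genes had none; their part in the clade B calls was not tested.

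Genes without a call were found at low and at high uniqueness. Of the 30 genes without a region, 5 had windows under 50% unique (Serpina1a, Serpina1b, Serpina1d, Serpinb9f and Serpinb9g), while 11 were over 90%. Serpinb2 (96.2%), Serpinb11 (97.4%), Serpine2 (93.4%), Serpine3 (96.8%) and Serpini2 (95.3%) were among the latter. Of the 30 genes with a region, 24 were over 90% and 1 was under 50%. Single genes of other clades had few sites: Serpinh1, a collagen chaperone, and Serpini1, neuroserpin, had 1 region each, called in 2 libraries. Serpinf1, pigment epithelium-derived factor, had an intronic site in 9 libraries.

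**Figure D3:**
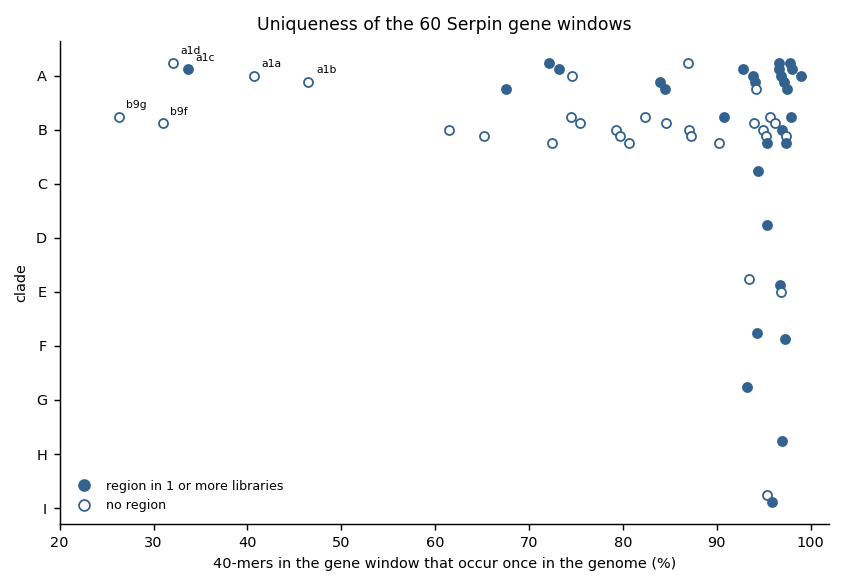
Each point is 1 of the 60 Serpin genes, placed by the percent of 40-mers in its window that occur once in the genome and by clade, filled where any library called a region and open where none did. Open points lie at 26.3 to 97.4%, so they are found at both low and high uniqueness.

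Removal of the pituitary was examined in females by regions called in all pools of one side and in none of the other. In all 4 intact pools and neither hypox female pool, 4 sites were called, at Serpina6, Serpina12, Serpina3a and Serpina3k. They make 5.2% of the 77 regions, beside 4.11% of all regions, which is close to the background. At Serpina7, 1 site went the other way (1.3%, beside 0.594%). With 4 against 2 pools the smallest exact p is 0.0667, so no test could pass. Hypox female pool 1 had the shortest list (24 Serpin regions, against 38 in pool 2 and 33 to 50 in intact females), and its part in these counts was not tested. Leaving out a pool loosens the rule, so counts can only rise: they were 5 and 7 without hypox female pool 1, 11 and 2 without hypox female pool 2, and 8 and 1 without intact female pool 2. Cutting all lists to one length left 1 site in each direction.

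The Serpina7 site 4.8 kb upstream (chrX:135624243-135624783) was called in all 10 hypox libraries of both sexes and in 0 of 4 intact ones. Its summit is nearer, at 3.8 kb, to the start of another protein-coding gene, 4930513O06Rik. Folds were 6.10 and 9.09 in hypox females, 5.96 and 6.16 in hypox males, 9.90 and 8.50 at 30 min, 12.11 and 11.28 at 90 min, and 12.20 and 9.06 at 240 min. The mean was 9.03 ± 2.40 (SD, n = 10), and the site was not detected in intact female pool 4, which has the longest list of all. Within the code G92 it was called in 8 of 8 hypox and 0 of 2 intact libraries. Intact females against all hypox libraries is a comparison chosen after these calls were seen. By it, 1 Serpin region was called only in hypox libraries, beside 0.0727% of all regions, and 0 only in intact females, beside 0.962%. For the Serpina7 site Fisher's exact test gave p = 0.000999, the smallest 4 against 10 libraries allow, and a Benjamini-Hochberg adjusted p of 0.0966 over 48148 regions. Its sequence above has a C/EBP and an AP-1 match and no STAT5 match.

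The other direction was led by Serpina12. Its intronic site 1.5 kb from the start (chr12:105280952-105281392) had folds of 3.61, 3.54, 8.43 and 4.99 in the intact females, 4.63 in GH 240 min pool 1, and no call in the other 9 hypox libraries. Unadjusted Fisher's exact p over these 14 libraries was 0.005. The Serpina3m promoter (p = 0.015) and the Serpina1c promoter (p = 0.041) by Fisher's exact test were also called more often in intact females, the former in 4 of 4 intact and 2 of 10 hypox libraries. These 3 of 77 Serpin regions are a lower share than the 6.15% of all regions with an unadjusted Fisher p under 0.05 in that direction. Serpina7, as 1 of 77, stands beside 0.573% in the other. After adjustment Fisher's exact test left 0 regions of 48148 in either direction (both 0%). The Serpina3m and Serpina1c promoters are 70.1% and 73.4% unique.

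The other 3 sites called in every intact pool and no hypox female pool were each called in some hypox males. Serpina3k, a kallikrein inhibitor, had its site 1.5 kb upstream at 7.62, 6.94, 4.73 and 7.53 in intact females, 5.81 in 1 untreated male pool, 4.62 in 1 pool at 30 min, and 4.86 and 4.14 at 240 min. The Serpina6 site 3.0 kb upstream had 2.60 to 4.04 in intact females, 2.76 and 2.51 in untreated males and 3.22 to 4.89 at 30 and 90 min, with no call at 240 min. The Serpina3a site 5.5 kb upstream was called in all 12 libraries other than those of hypox females, at 5.35 ± 1.59.

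Sex among untreated hypox mice was compared with 2 pools a side, where the smallest exact p is 0.333. The Serpina6 and Serpina3a sites just named were called in both male and neither female pool (2.6%, beside 3.19% of all regions). No Serpin region was called in both female pools alone (beside 0.449%). Both Serpin shares were below those of all regions, and males and females also differ in code. Counts were 10 without hypox female pool 2, and 6 and 7 without male pools 1 and 2; in the other direction they were 6 without hypox female pool 1 and 2 without male pool 2.

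GH was compared with untreated hypox males at each time; the 3 comparisons share those 2 control pools, and 2 pools a side cannot give an exact p below 0.333. At 30 min, 5 Serpin regions were called in both GH pools and neither control (6.5%, beside 3.33% of all regions). At 90 min there were 4 (5.2%, beside 3.79%) and at 240 min 2 (2.6%, beside 1.78%). At any of the times the union was 6 regions, 5 of clade A and 1 of clade B, with 5.56% of all regions in the same union. Calls in both controls alone numbered 1 at 30 min (1.3%, beside 5.57%), 1 at 90 min (beside 5.1%) and 2 at 240 min (2.6%, beside 2.7%), 4 in all (beside 8.09%). Without GH pool 2 of each time, the GH-only counts were 10, 12 and 5, and without control pool 1 the count at 240 min was 4. The control-only counts were 6 at each time without control pool 1 and 5 without control pool 2. Without GH pool 1 they were 2, 2 and 7, and without GH pool 2 they were 3, 2 and 2.

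**Figure D4:**
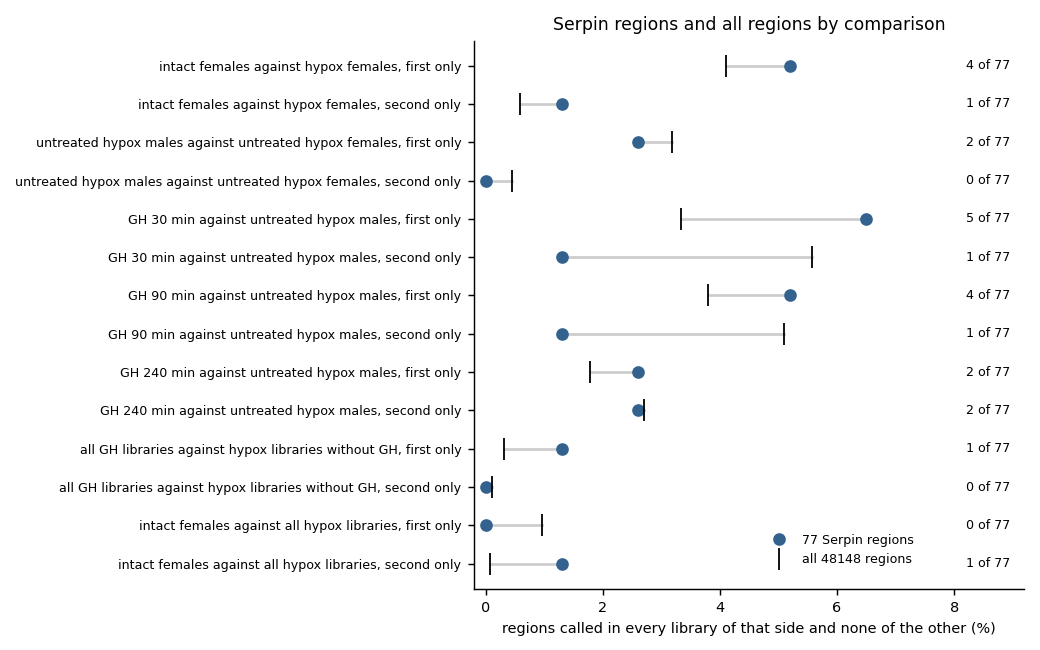
Blue points give the percent of the 77 Serpin regions called in every library of one side and none of the other, and black ticks the same percent for all 48148 regions, for both directions of each comparison. Counts out of 77 stand at the right; the Serpin share at GH 30 min, first side, is 6.5% against 3.33%, and at the second side 1.3% against 5.57%.

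Serpinb6b, an intracellular clade B serpin, had the one Serpin region called in both pools of all 3 GH times and in no hypox library without GH. The site lies in an intron 4.5 kb from the start (chr13:33061380-33062005). Its folds were 8.91 and 7.58 at 30 min, 6.46 and 4.68 at 90 min, and 7.59 and 4.39 at 240 min. It was also called in intact female pools 3 (4.00) and 4 (5.75) and missed in pools 1 and 2. All 6 GH pools thus stood apart from all 4 hypox pools without GH, and the intact females were split along the codes G93 and G92. Fisher's exact test over 6 against 4 libraries, two-sided, gave p = 0.00476, the smallest possible, and an adjusted p of 1. It was 1 of 77 Serpin regions in that class (1.3%, beside 0.32% of all), and 0 were in the reverse class (beside 0.114%). By unadjusted Fisher's exact p under 0.05 it was again the one Serpin region with more calls after GH (beside 1.24% of all regions) and 0 had fewer (beside 1.06%); 0 regions of 48148 passed adjustment (0%). Within code G92 the counts were 6 of 6 GH pools and 0 of 2 hypox female pools, where GH and sex cannot be told apart. With peaks of −log10 p of at least 10, or with lists of equal length, the site no longer met the rule of 6 against 0 pools.

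Serpina10 and Serpina11 had sites seen early and not late. The Serpina10 site 2.2 kb upstream (chr12:104871514-104872284) had folds of 6.57 and 3.26 at 30 min and 6.25 and 5.64 at 90 min. It was not called at 240 min, in untreated males or in intact females, but was called in hypox female pool 2 (3.42). The Serpina11 site 2.6 kb upstream (chr12:105230501-105231001) had 5.11 and 2.96 at 30 min and 3.43 and 4.24 at 90 min. It was absent from the lists at 240 min and from all 4 hypox libraries without GH, and stood at 3.17, 4.82 and 2.62 in 3 of 4 intact females. As printed above, the first holds 1 match to the STAT5 sequence and the second 2.

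Serpina3k had a pair of sites called in both pools at 30 min and in neither untreated hypox male pool. Its promoter (chr12:105576359-105576708) had 6.31 and 5.13 at 30 min, 5.87 and 5.36 at 90 min, no call at 240 min or in hypox libraries without GH, and 6.12, 5.14 and 6.05 in 3 of 4 intact females. The site 3.4 kb upstream (chr12:105572767-105573377) had 5.09 and 4.72 at 30 min, 4.89 in 1 pool at 90 min and 4.11 in 1 pool at 240 min, and was called nowhere else. Within the regions themselves, 74.0% of 40-mers were unique at the promoter and 98.7% at the upstream site. The third region of the gene, 1.5 kb upstream, was called at 240 min in both pools, when the promoter was not.

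A last site was called in both pools of a GH time at 240 min alone. It lies in an untranslated exon near the 3′ end of Serpina9, 6.8 kb upstream of Serpina11 (chr12:105234704-105235151), with folds of 4.12 and 5.50 at 240 min, 3.97 in 1 pool at 30 min and 3.81 in 1 pool at 90 min. Intact females had it in 3 of 4 pools (5.47, 7.46 and 5.73) and hypox libraries without GH in none. The Serpina11 and Serpina9 site, the Serpina11 upstream site, and the Serpina3k promoter and site 3.4 kb upstream had the same counts. Each was called in 4 of 6 GH pools and 0 of 4 hypox pools without GH (Fisher's exact p = 0.0762).

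**Figure D5:**
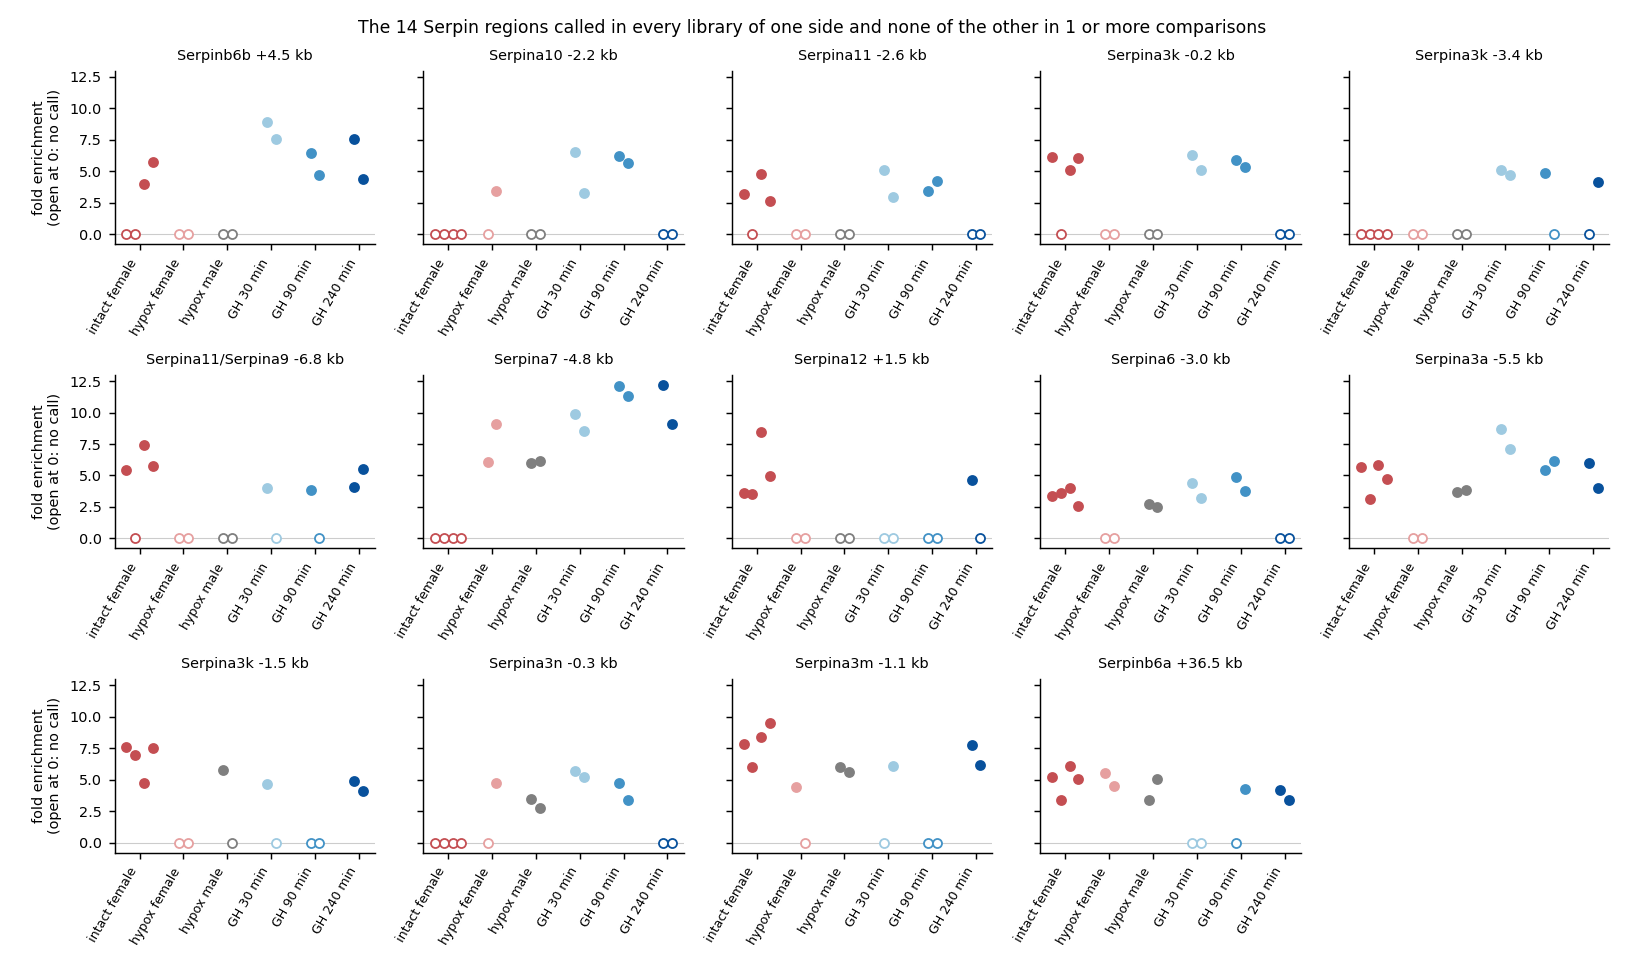
Each panel is 1 of the 14 Serpin regions called in every library of one side and none of the other in at least 1 comparison, with the authors' fold enrichment in each pool by group and open circles at 0 where no peak was called. The Serpinb6b panel has filled points in all 6 GH pools and open ones in all 4 hypox pools without GH, and the Serpina7 panel has open points in the 4 intact females alone.

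Sites called in both untreated males and missed after GH are described last. The Serpinb6a site 36.5 kb from its start, 1.6 kb from the Nqo2 start, was missed in both pools at 30 min and in 1 at 90 min, and stood at 3.36 to 6.05 elsewhere. The Serpina3m site 1.1 kb upstream was missed at 90 min in both pools, at 30 min in 1 pool and in 1 hypox female pool, and stood at 7.85, 5.97, 8.39 and 9.48 in intact females. At 240 min it was called in both pools, at 7.75 and 6.20. The Serpina3n promoter, by contrast, was called in both untreated males (3.46 and 2.73), at 30 min (5.68 and 5.22) and at 90 min (4.73 and 3.38), and in 1 hypox female pool (4.70), but in neither 240 min pool nor any intact female. Serpina6 at 3.0 kb upstream shared its absence at 240 min.

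Across whole libraries, Serpin regions made up 0.181 to 0.197% of called regions in the 4 pools at 30 and 90 min, 0.148 and 0.171% at 240 min, 0.142 to 0.162% in hypox libraries without GH, and 0.144 to 0.181% in intact females. The 30 and 90 min pools thus lay above all hypox pools without GH and met the intact females at intact pool 3. In those 4 pools, 42, 37, 44 and 38 Serpin regions were called. Untreated males had 37 and 39 and hypox females 24 and 38, so the counts overlapped. Called regions of all kinds numbered 19940 to 23933 in those 4 pools, 22903 and 25361 in untreated males, and 16896 and 24586 in hypox females. Clade A regions called were 26 and 23 at 30 min, 25 and 21 at 90 min, 23 and 18 at 240 min, 21 and 20 in untreated males, 10 and 20 in hypox females, and 25, 19, 24 and 28 in intact females. Those counts overlap between groups in most cases.

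The STAT5 sequence was found in 11 of the 77 Serpin regions (14.3%) and in 9.2% of all regions in the same 200-base window. It was held by 46.4% of all regions called in both 30 min pools and neither control, 44.8% at 90 min and 30.8% at 240 min. Serpin regions of those classes held it in 2 of 5, 2 of 4 and 1 of 2 cases. In the class of all GH pools, 65.6% of 154 regions held it, while the Serpin member, in Serpinb6b, had no match to these letters in the window and 1 to the glucocorticoid receptor sequence. The C/EBP sequence was in 19 Serpin regions (24.7%, beside 15.1% of all), including 6 of the 14 constant ones (beside 17.9% of all constant regions). The FOXA sequence was in 6 (7.8%, beside 5.9%) and AP-1 in 7 (9.1%, beside 7.6%). The sequence CAAAGTCCA (HNF4A) was in 0 (beside 1.7%). These are descriptions of letters, with no test.

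Proteases and other genes listed as partners of liver serpins, not all of them targets of a serpin, were set beside the Serpin genes. The list of 25 genes included prothrombin (F2), factor X (F10), plasminogen (Plg), plasma kallikrein (Klkb1) and the fibrinogen chains. Of the 25, 23 had a region, beside 62.7% of all protein-coding gene symbols. Plat, the tissue plasminogen activator, and C1ra were the exceptions. A constant region was found at 17, beside 22.4% of all symbols and 11 of 60 Serpin genes. The list was chosen around liver serpins and holds the hepatocyte markers Ttr and Fgb. By contrast, the 60 include 26 clade B genes, 21 of them without a region. The 25 listed genes had 80 regions. Called in both pools at 30 min and neither control were 6 of them, at Cpb2, Fga, Hpn and Kng1 (beside 3.33% of all regions). At 90 min there were 6 at the same 4 genes (beside 3.79%), and at 240 min 2 at Fga and Hpn (beside 1.78%). Of the 80, 3, 6 and 0 were called in both controls alone at these times (beside 5.57%, 5.1% and 2.7% of all regions). One region of Hpn, the membrane protease hepsin, was called in all 6 GH pools and in 0 of the 4 hypox pools without GH, as at Serpinb6b, with a fold of 4.89 ± 0.76 over 10 libraries that include all 4 intact females (Fisher's exact p = 0.00476, adjusted p of 1). A region at F11, the clotting factor XI, had the calls of the Serpina12 intron: 4 of 4 intact females and 1 of 2 pools at 240 min.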

How the data were processed

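The authors' DNase-seq reads were aligned with Bowtie2 to mm9, per the submitters' processing notes, and peaks were called per library with MACS2 2.1.0.20150731 on uniquely mapped reads of 40 bp, without a control, at a q cutoff of 0.05, per the file headers. Each deposited list gives a fold enrichment ratio, a pileup signal and −log10 p and q values, per the file headers. The fold describes peaks and −log10 p filters them. The 6 combined lists were not used. One gene with its 3 regions is counted but not reported here. Genes are those of GENCODE vM1 on the same build, and coordinates are 1-based. Peaks reaching a gene window only through merging were dropped for members. Calls were compared by counts of regions called on one side alone, beside all 48148 regions. Fisher's exact tests, two-sided, were run per region with Benjamini-Hochberg adjustment over all regions (scipy 1.17.1) and tested on simulated data. Unique 40-mers were counted in mm9, and 8 motifs searched in 200 bp around summits. Named with values were a region of each gene called in all 14 libraries, regions called on one side alone, and those with an unadjusted p under 0.05; others were named by symbol or chosen after their values were seen. Members, lists and rules were chosen with earlier results of these data known. Where nothing says that pools were separate experiments, p-values measure the spread between pools only. Alternatives were a −log10 p of at least 10, lists of equal length (17691 peaks), merging at 100 bp, a 2 kb window, one code only, and leaving out each pool.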

Additional observations from a re-analysis of the deposited data

How the results depend on the processing

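Of 94 counts recomputed under other settings, 74 stayed within 1.5 times the reported value. The 74 include results that were 0 as reported and stayed 0. With peaks of −log10 p of at least 10, the regions called in all 14 libraries fell from 14 to 9, intact-only sites against hypox females from 4 to 2, and GH-only sites from 5 to 3 at 30 min and from 2 to 1 at 240 min. Control-only sites were 2 at 30 min and 1 at 240 min, and the Serpinb6b class of all GH pools was 0. With lists of equal length the intact-only count was 1, the class of all GH pools 0, control-only sites 2 at 30 and 2 at 90 min, and 3 Serpin regions had an unadjusted Fisher p under 0.05 instead of 1. With the 2 kb window, which leaves out upstream sites, intact-only sites were 2 and hypox-only 0, against hypox females and against all hypox libraries alike (0), male-only sites 0, GH-only sites 2 at 30 and 2 at 90 min, and control-only sites 1 at 240 min. With code G92 alone, the hypox pools without GH are those of females. Under that setting 2 regions, at Serpinb6b and Serpina3a, were in all GH pools and neither hypox female pool. The Serpina3a site was also called in both untreated hypox male pools, of code G103, at 3.68 and 3.86.

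Leaving out 1 pool gave 4 to 11 intact-only and 1 to 7 hypox-only sites in females, 3 to 10 male-only and 0 to 6 female-only sites. GH-only sites ran from 5 to 10, 5 to 12 and 3 to 5 at 30, 90 and 240 min, and control-only sites from 2 to 6, 2 to 6 and 2 to 7. Intact-only sites against all hypox libraries were 0 to 1 and hypox-only 1 to 1. All GH against hypox pools without GH gave 1 to 1 and 0 to 0. Serpin regions with an unadjusted Fisher p under 0.05 were 1 to 4 for GH and 3 to 6 for intact females, with 0 to 0 after adjustment. Constant regions were 14 to 18 and genes with a region 29 to 30. A class with fewer pools is met more easily by construction.

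Pools that share a number did not deviate together (r between -0.103 and 0.054 over 15 pairs of groups). With the replicate block, Fisher's test over strata of pool number gave 1 Serpin region with an unadjusted p under 0.05 and 0 of 48148 regions after adjustment, the same counts as without it.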
